A study of Mus musculus with 6 samples.

Results

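Aminoacyl-tRNA synthetases are the enzymes that join each amino acid to its transfer RNA. The 38 genes described here are 20 synthetases of the cytosol, 16 of the mitochondrion (all named with the suffix 2) and the scaffold genes Aimp1 and Aimp2, which hold several of the cytosolic enzymes in one complex. They were taken by gene name, with earlier results of these data known. All 38 were found by symbol or synonym among the 18124 genes of the deposited table, and all 38 passed the filter on low counts that left 14644 genes for testing.

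Each synthetase recognises one amino acid and the transfer RNAs that decode it, and the charged transfer RNA is then delivered to the ribosome by an elongation factor. Animal cells keep separate enzymes for the cytosol and for the mitochondrion, with Gars and Kars as known exceptions whose single gene serves both. Several cytosolic synthetase genes are known targets of ATF4, the transcription factor that is made when amino acids are short or when the kinases that act on translation initiation factor eIF2 are active.

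The study asked how products of senescent macrophages act on mesenchymal stem cells of muscle. The cells were positive for Sca-1 (the product of Ly6a) and for a green fluorescent protein driven by the collagen 1 promoter (genotype Col1-GFP); they were sorted from quadriceps of 6 naïve male mice and used at passage 4. For 72 hours they were kept in medium conditioned for 48 hours by bone marrow-derived macrophages of wild type mice, either untreated control macrophages (3 libraries) or macrophages made senescent with hydrogen peroxide, 300 µM for 3 hours, applied again after 3 days and followed by 14 days of culture (3 libraries). The groups are called control medium and senescent medium here, and the labels do not say how long the control macrophages were cultured. The labels do not give the age of the mice, whether their cells were pooled, or whether the libraries of a group are separate isolates or media, so a p-value here is relative to a spread among libraries that could be purely technical.

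Libraries held 17228162 to 21659434 estimated counts. Spearman correlations across genes were 0.996 to 0.997 between libraries of one medium and 0.981 to 0.982 between media. Stromal genes were abundant: the 6 tested genes of a list of 7, among them Col1a1, Ly6a, Pdgfra and Thy1, summed to 10083 to 10156 CPM in control medium and 13396 to 13947 CPM in senescent medium, where CPM is the usual count scaled to library size, after TMM scaling of the libraries. Most of these sums came from 2 collagen genes. Col1a1 averaged 5361 CPM in control and 7516 CPM in senescent medium, and Col1a2 averaged 2856 and 4139 CPM. Of the 6 genes 4 rose in edgeR, Pdgfra fell from 265 ± 9.87 to 217 ± 2.06 CPM, and Ly6a missed the threshold. Lum had too few counts for a test. Of 12 macrophage markers 5 were listed in the table, and Adgre1, Ptprc, Itgam, C1qa, C1qb, Fcgr1 and Tyrobp were not. The 4 that could be tested summed to 18.4 to 21.9 CPM in control medium and 17.8 to 23.8 CPM in senescent medium. Among these, Lyz2 rose from 6.71 ± 0.779 to 11.7 ± 1.33 CPM, Cd14 fell from 7.19 ± 0.468 to 3.26 ± 0.820 CPM, Csf1r fell from 4.62 ± 1.06 to 3.20 ± 0.726 CPM, and Cd68 missed the threshold in edgeR. The satellite cell and myoblast genes Pax7, Myf5, Myod1 and Myog were not listed either, while Des, a muscle filament gene, rose from 1.62 ± 0.245 to 5.15 ± 0.772 CPM. The part of other cell types in the values below was not tested.

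In senescent medium, 13 of the 20 cytosolic synthetase genes were higher and 3 were lower, while 3 of the 16 mitochondrial ones were higher and 6 were lower. Alanyl-, asparaginyl- and tryptophanyl-tRNA synthetase genes (Aars, Nars and Wars) had the largest rises, between 1.45-fold and 1.51-fold. Methionyl- and histidyl-tRNA synthetase genes (Mars1 and Hars) and the alpha subunit gene of phenylalanyl-tRNA synthetase (Farsa) fell. Counts are from edgeR's quasi-likelihood test with adjusted p under 0.05 after Benjamini-Hochberg adjustment over all genes tested. Over both compartments and the scaffolds 27 of 38 passed, 17 higher and 10 lower.

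These counts have to be read against a wide response. Of all 14644 genes, 49.5% passed the same threshold, 24.6% higher and 24.9% lower. The share called higher was 65% for the cytosolic synthetases and 18.8% for the mitochondrial ones, and the share called lower was 15% and 37.5%. The median log2 fold change of senescent over control medium was 0.23 for the cytosolic and −0.11 for the mitochondrial genes, beside −0.00096 over all genes. Changes were small. Wars was the only member called higher by at least 1.5-fold, a size that 6.69% of all genes reached; none reached 2-fold, as 2.63% of all genes did. The 38 genes lay between −0.56 and 0.59 on the log2 scale. In these bulk samples, fewer cells of a kind and less RNA per cell cannot be told apart.

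**Figure D1:**
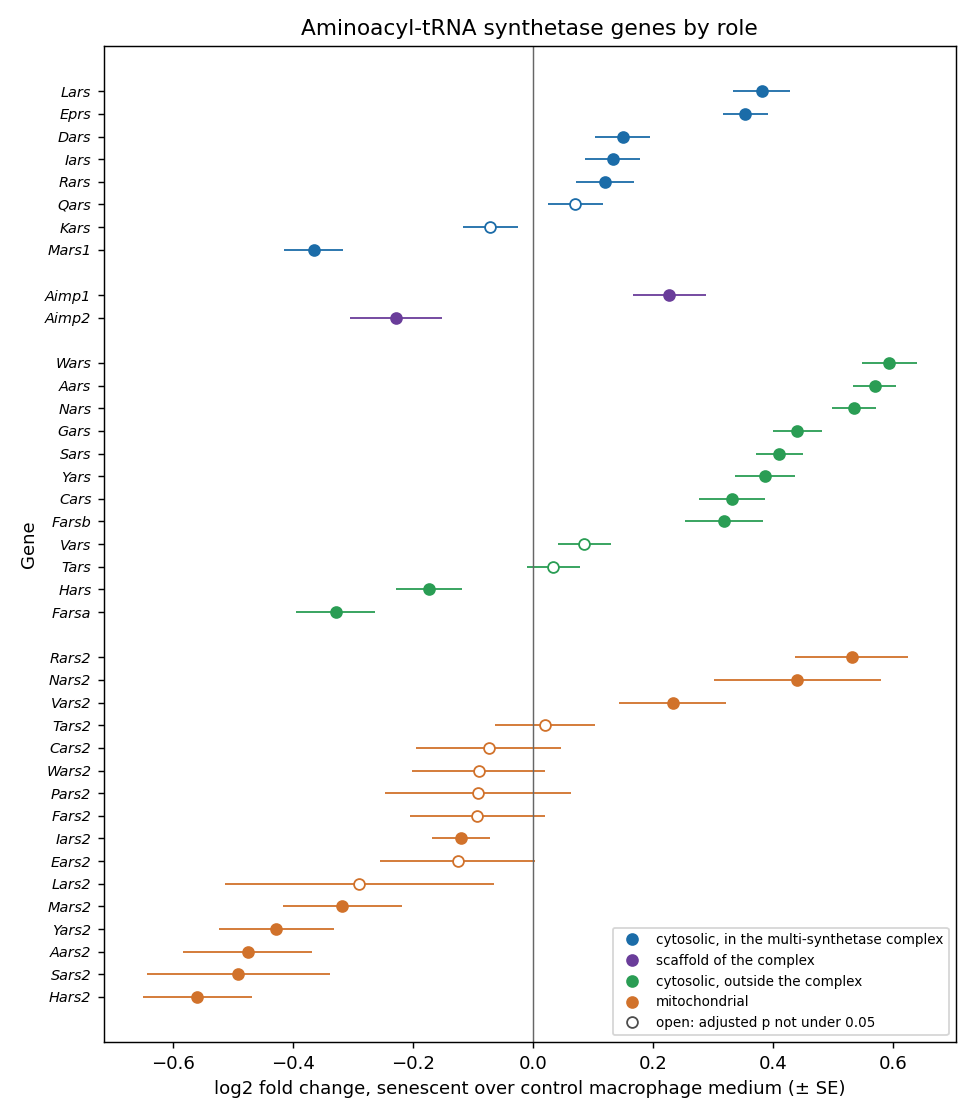
Log2 fold change of senescent over control medium (x axis, ± SE) for the 38 genes, ordered within each role (y axis); filled points have an adjusted p under 0.05 in edgeR. Most cytosolic genes sit right of 0, up to 0.59 for Wars, and most mitochondrial genes sit left of 0, down to −0.56 for Hars2.

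The cytosolic synthetases that work outside the complex had the largest rises. The test called 8 of these 12 genes higher and 2 lower. Their median was 0.36 on the log2 scale. Aars (ENSMUSG00000031960), the alanine enzyme, read 219, 209 and 215 CPM in control replicates 1, 2 and 3 and 322, 326 and 307 CPM in senescent-medium replicates 1, 2 and 3. Every senescent-medium library was above every control library, and the log2 fold change was 0.57 ± 0.036 (adjusted p = 1.66e-14, edgeR). Of the exon length of Aars 14.3% (1326 bases) is shared with Exosc6 on the same strand, a gene that is not among those listed, and the part of shared reads was not tested. Here and below, ± is the SE after a log2 fold change and, after a CPM value, the SD (n = 3 libraries). Across all genes, 55.8% had no overlap between the media, 27.8% with senescent medium above and 28.0% with it below; among the 38 genes 18 lay above and 11 below.

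Nars (ENSMUSG00000024587), which charges asparagine, read 159.8, 162 and 164 CPM in control medium and 229, 232 and 244 CPM in senescent medium. Its log2 fold change was 0.54 ± 0.037 (adjusted p = 1.76e-13, edgeR). Wars (ENSMUSG00000021266), the tryptophan enzyme, is also known as an interferon-induced gene. Its control libraries were nearly equal, at 67.0, 67.0 and 66.0 CPM, and its senescent-medium libraries stood at 95.9, 104 and 102 CPM, that is 0.59 ± 0.046 on the log2 scale (adjusted p = 2.18e-12, edgeR). In neither gene did the media overlap.

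Interferon-induced genes were also higher in senescent medium, and unevenly so between its libraries. Of 11 tested genes in a list of 12, 10 rose, and their median log2 difference from the control mean was 2.69, 1.95 and 1.49 in senescent-medium replicates 1, 2 and 3. Wars read 95.9, 104 and 102 CPM in the same order. Members of the list differed in this order. The interferon-regulated transcription factor gene Irf1 rose from 13.5 ± 0.632 CPM to 17.6 ± 1.81 CPM, with 16.5, 19.7 and 16.5 CPM in these libraries. The guanylate-binding protein gene Gbp2 rose from 8.94 ± 1.81 CPM to 28.4 ± 6.71 CPM, with 36.1, 24.4 and 24.7 CPM. The part of interferon-induced transcription in the rise of Wars was not tested.

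Gars (ENSMUSG00000029777), the glycine enzyme of cytosol and mitochondrion, went from 117, 117 and 112 CPM to 153, 153 and 165 CPM. The serine enzyme gene Sars (ENSMUSG00000068739) went from 130.045, 122 and 119.9 CPM to 163, 167 and 164 CPM. The log2 fold changes were 0.44 ± 0.041 for Gars and 0.41 ± 0.040 for Sars (adjusted p = 1.70e-10 and 3.56e-10, edgeR), with no overlap between media. Yars (tyrosine), Cars (cysteine) and Farsb (the beta subunit for phenylalanine) rose as well, by 0.39 ± 0.051, 0.33 ± 0.055 and 0.32 ± 0.065 on the log2 scale.

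Threonyl- and valyl-tRNA synthetase genes did not pass the test. Tars read 88.1, 90.1 and 87.5 CPM in control medium and 92.6, 86.5 and 92.8 CPM in senescent medium, and the media overlapped (log2 fold change 0.03 ± 0.044, adjusted p = 0.556, edgeR). Vars read 79.7, 82.7 and 83.2 CPM and then 85.7, 88.2 and 87.0 CPM (0.09 ± 0.044, adjusted p = 0.105, edgeR). Its libraries did not overlap. With libraries scaled by their totals alone, the value of Tars was −0.05 and that of Vars 0.0049.

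Histidyl-tRNA synthetase was lower in both compartments. Hars (ENSMUSG00000001380) read 62.3, 55.8 and 57.3 CPM in control medium and 54.9, 49.2 and 51.1 CPM in senescent medium, or −0.17 ± 0.055 on the log2 scale (adjusted p = 0.0102, edgeR). The call was lost without control replicate 1 (adjusted p = 0.0589) or senescent-medium replicate 2 (0.0783), in a range of 0.000367 to 0.0783 over its alternatives. The mitochondrial gene Hars2 (ENSMUSG00000019143) read 21.5, 21.0 and 22.9 CPM and then 16.7, 12.5 and 15.0 CPM, the largest fall among the 38 genes (−0.56 ± 0.091, adjusted p = 6.62e-06, edgeR). These genes lie on opposite strands, and 195 bases of their annotated exons coincide, 7.97% of the exon length of Hars and 4.56% of that of Hars2. Whether the counting used strand is not given in the sources used here.

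Phenylalanyl-tRNA synthetase of the cytosol is built from alpha and beta subunits, and their genes moved in opposite directions. Farsa (ENSMUSG00000003808), the alpha subunit, fell from 40.3, 37.4 and 34.4 CPM to 29.8, 30.5 and 29.0 CPM (log2 fold change −0.33 ± 0.066, adjusted p = 0.000106, edgeR). Farsb (ENSMUSG00000026245), the beta subunit, rose from 26.8, 27.6 and 30.1 CPM to 35.2, 35.8 and 34.3 CPM (0.32 ± 0.065, adjusted p = 0.000137, edgeR). The ratio of Farsb to Farsa CPM was 0.665, 0.738 and 0.876 in control medium and 1.18, 1.17 and 1.18 in senescent medium. These ratios are not corrected for exon length. Per kilobase of exon, Farsb was above Farsa in control medium already, at 10.7 and 8.23 CPM, and in senescent medium at 13.4 and 6.56 CPM. The ratios did not overlap, and the two-sided exact permutation test gave p = 0.1, the smallest value that 3 libraries against 3 allow. Of the exon length of Farsb 9.47% is shared with Sgpp2 on the opposite strand, a gene that is not among those listed.

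Of the 8 synthetases of the complex, 5 rose and 1 fell, and their median was 0.13 on the log2 scale. Lars (ENSMUSG00000024493), the leucine enzyme that also serves as a leucine sensor for the growth kinase mTORC1, read 65.6, 67.1 and 65.3 CPM in control medium and 82.8, 83.6 and 91.6 CPM in senescent medium (0.38 ± 0.048, adjusted p = 7.76e-08, edgeR). Eprs (ENSMUSG00000026615), a single protein that charges both glutamate and proline, read 147, 151 and 156 CPM and then 193, 197 and 188 CPM (0.35 ± 0.038, adjusted p = 3.08e-09, edgeR). In both genes all senescent-medium libraries lay above all control libraries.

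Dars, Iars and Rars, for aspartate, isoleucine and arginine, showed changes near the limit of detection. Dars read 65.1, 67.9 and 65.7 CPM and then 73.8, 73.3 and 73.4 CPM (log2 fold change 0.15 ± 0.046, adjusted p = 0.00801, edgeR). With library totals alone it missed the threshold (adjusted p = 0.226, in a range of 0.00780 to 0.226 over its alternatives). Iars read 82.6, 74.99 and 80.7 CPM and then 88.7, 84.8 and 87.4 CPM (0.13 ± 0.046, adjusted p = 0.0177, edgeR), and its call was lost with library totals (0.381), without control replicate 2 (0.140) and without senescent-medium replicate 1 (0.0691), in a range of 0.00514 to 0.381. Rars read 66.9, 70.6 and 64.3 CPM and then 74.6, 71.8 and 73.3 CPM (0.12 ± 0.048, adjusted p = 0.0377, edgeR). The Rars call held in 6 of 13 alternative fits at the same threshold. It was lost with DESeq2 (0.0950), with library totals (0.516), without control replicate 1 (0.0644) or 3 (0.195) and without senescent-medium replicate 1 (0.119), 2 (0.0505) or 3 (0.0749), in a range of 0.0165 to 0.516.

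Lysyl- and glutaminyl-tRNA synthetase genes missed the threshold. Kars, which like Gars serves both compartments, read 90.2, 83.1 and 84.6 CPM in control medium and 82.8, 82.7 and 80.0 CPM in senescent medium (log2 fold change −0.07 ± 0.045, adjusted p = 0.203, edgeR). With library totals alone it was called lower (−0.15, adjusted p = 0.00637, in a range of 0.00637 to 0.523 over its alternatives). Qars read 74.9, 73.6 and 72.8 CPM and then 79.8, 76.7 and 76.0 CPM (0.07 ± 0.045, adjusted p = 0.202, edgeR), and was −0.01 with library totals.

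Mars1 (ENSMUSG00000040354), the methionine enzyme of the complex, went the other way. It read 73.4, 69.1 and 73.2 CPM in control medium and 54.8, 55.7 and 56.8 CPM in senescent medium, without overlap (log2 fold change −0.36 ± 0.049, adjusted p = 2.25e-07, edgeR). Exons of Mars1 and of Ddit3, an ATF4-induced transcription factor gene of the stress response, overlap on opposite strands over 68 bases, 1.99% of the exon length of Mars1. Ddit3 rose from 26.4 ± 1.24 to 64.4 ± 1.08 CPM (1.29 ± 0.057, adjusted p = 3.87e-18, edgeR). The part of shared reads in the Mars1 value was not tested.

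The scaffold genes changed in opposite directions too. Aimp1, which has a cytokine-like secreted form, read 37.6, 36.7 and 33.7 CPM and then 43.4, 40.3 and 42.8 CPM (log2 fold change 0.23 ± 0.061, adjusted p = 0.00233, edgeR). Aimp2, the central scaffold, read 24.3, 23.5 and 22.05 CPM and then 20.2, 18.8 and 20.7 CPM (−0.23 ± 0.077, adjusted p = 0.0146, edgeR). The Aimp2 call was lost with DESeq2 (0.0608) and without senescent-medium replicate 2 (0.0761), in a range of 0.00154 to 0.0761 over its alternatives. Of its exon length 29.4% overlaps Eif2ak1 on the opposite strand, a gene for one of the eIF2 kinases that fell as well, from 53.8 ± 4.56 to 46.0 ± 2.05 CPM (−0.23 ± 0.060); the part of shared reads in either value was not tested. The third auxiliary protein of the complex, Eef1e1, was at 17.7 ± 1.74 and 16.1 ± 0.896 CPM and missed the threshold (−0.14 ± 0.089, adjusted p = 0.196, edgeR).

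**Figure D2:**
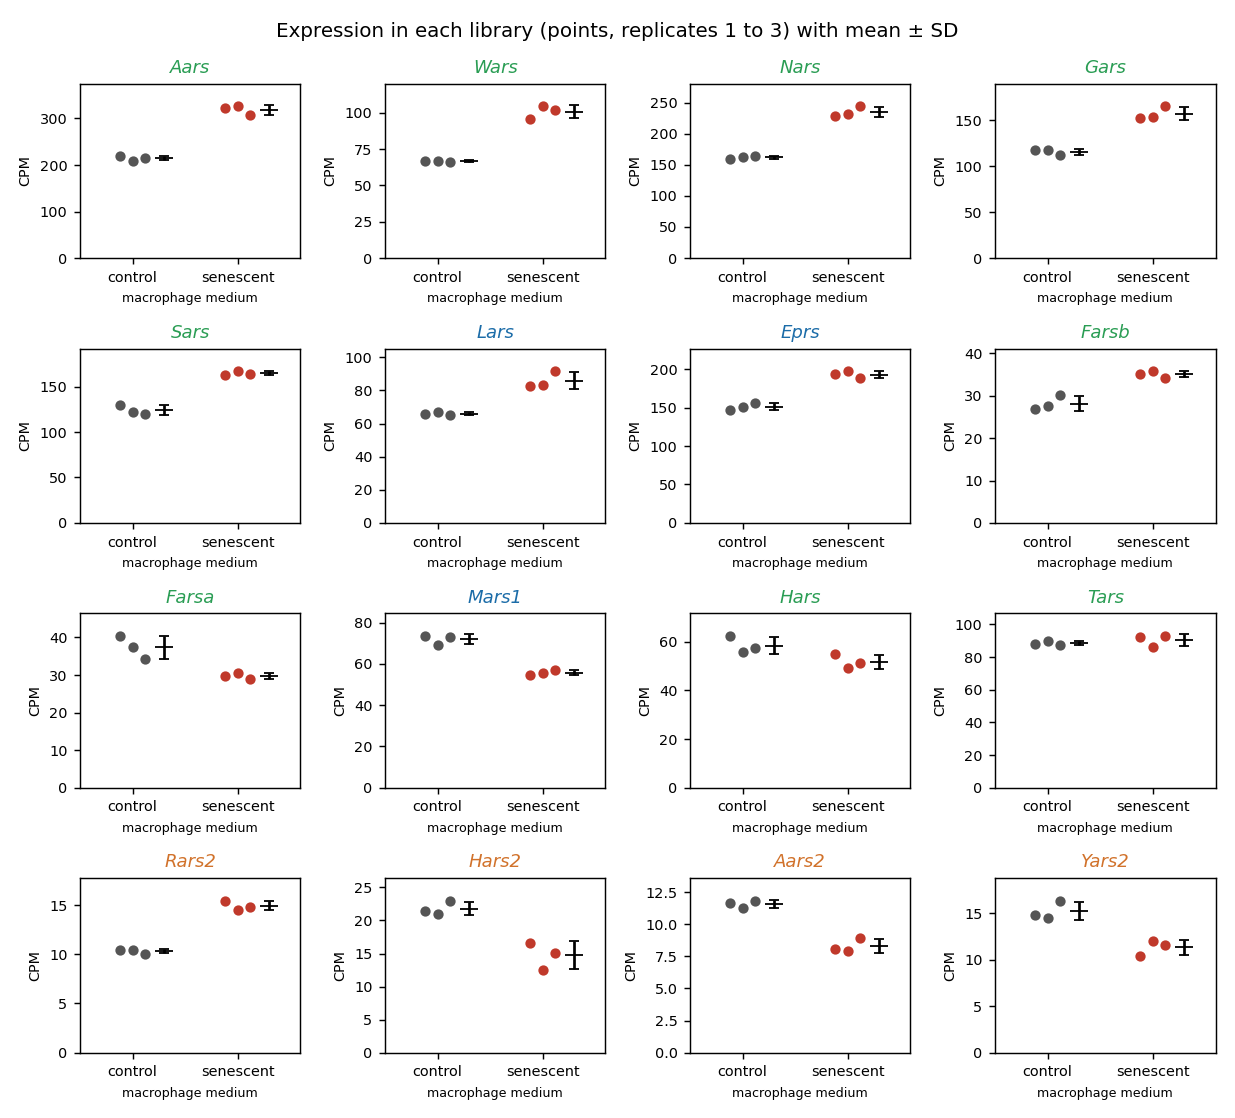
CPM (y axis, from 0) of 16 synthetase genes in the 3 control-medium and 3 senescent-medium libraries (x axis); points are libraries, bars the mean ± SD, and title colours the roles (green cytosolic outside the complex, blue in the complex, orange mitochondrial). The media are apart in each panel except that of Tars, where 86.5 to 92.8 CPM in senescent medium overlaps 87.5 to 90.1 CPM in control medium.

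Mitochondrial synthetases were mostly lower or not distinguishable. After Hars2, the falls with the smallest adjusted p were those of Yars2, Aars2, Sars2 and Mars2, the mitochondrial enzymes for tyrosine, alanine, serine and methionine. Yars2 read 14.8, 14.5 and 16.3 CPM in control medium and 10.4, 11.99 and 11.6 CPM in senescent medium (log2 fold change −0.43 ± 0.096, adjusted p = 0.000445, edgeR). Aars2 read 11.7, 11.3 and 11.8 CPM and then 8.06, 7.94 and 8.94 CPM (−0.47 ± 0.11, adjusted p = 0.000460, edgeR). For both genes, all senescent-medium libraries lay below all control libraries.

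Sars2 and Mars2 fell with less margin. Sars2 read 5.92, 5.58 and 6.81 CPM and then 4.42, 4.85 and 3.75 CPM (−0.49 ± 0.15 on the log2 scale, adjusted p = 0.00850, edgeR). Its call was lost when replicate 3 of control medium (0.0539) or of senescent medium (0.0590) was left out, in a range of 0.00257 to 0.0590 over its alternatives. Mars2 read 12.2, 13.2 and 13.1 CPM and then 10.1, 10.0 and 10.8 CPM (−0.32 ± 0.099, adjusted p = 0.00851, edgeR). The isoleucine gene Iars2 was called lower at an adjusted p of 0.0412 (edgeR, −0.12 ± 0.049), a call that was lost in 6 of 13 alternatives: with DESeq2 (0.120), with no filter (0.0554), without control replicate 2 (0.314) and without senescent-medium replicate 1 (0.144), 2 (0.0942) or 3 (0.0523), in a range of 0.00111 to 0.314. Of its exon length 22.9% is shared with Rab3gap2 on the opposite strand, which fell from 69.1 ± 2.99 to 55.6 ± 0.905 CPM.

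Rars2, Nars2 and Vars2 rose, against the majority. Rars2 (ENSMUSG00000028292), for mitochondrial arginyl-tRNA, read 10.5, 10.4 and 10.1 CPM in control medium and 15.4, 14.5 and 14.8 CPM in senescent medium, or 0.53 ± 0.095 on the log2 scale (adjusted p = 2.23e-05, edgeR), and kept its call in all 13 alternative fits. Nars2 read 5.80, 4.98 and 6.30 CPM and then 8.59, 6.71 and 7.74 CPM (0.44 ± 0.14, adjusted p = 0.00934, edgeR). It missed the threshold without control replicate 2 (0.0691) or senescent-medium replicate 1 (0.0665), in a range of 0.00602 to 0.0691. Vars2 read 16.5, 14.7 and 14.6 CPM and then 18.3, 16.4 and 19.04 CPM, with overlap (0.23 ± 0.089, adjusted p = 0.0295, edgeR). Its call was lost in 6 of 13 alternatives: with DESeq2 (0.101), with library totals (0.167), without control replicate 2 (0.109) or 3 (0.101) and without senescent-medium replicate 1 (0.0774) or 3 (0.134), in a range of 0.0129 to 0.167.

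The other 7 mitochondrial genes, Cars2, Ears2, Fars2, Lars2, Pars2, Tars2 and Wars2, did not pass the test, and their libraries overlapped between media. Apart from Lars2 their log2 fold changes ran from −0.12 for Ears2 to 0.02 for Tars2, with standard errors of 0.083 to 0.16. Counts of the mitochondrial genes without Lars2 were as low as 78 in a library, against at least 476 for a cytosolic synthetase.

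Lars2 stood apart from its group. Its level per kilobase of exon was 94.8 CPM in control medium, while the other 15 mitochondrial genes lay between 0.817 and 9.01. It read 1074, 1116 and 965 CPM in control medium and 1025, 944 and 613 CPM in senescent medium, so that senescent-medium replicate 3 was lowest and the media overlapped (log2 fold change −0.29 ± 0.22, adjusted p = 0.361, edgeR). Without that library the log2 fold change was −0.09. The most abundant feature of the table, an Ensembl gene without a symbol in the annotation used, moved with it: it took 5.29%, 5.16% and 4.45% of the counts in control replicates 1, 2 and 3 and 4.34%, 4.25% and 2.78% in senescent-medium replicates 1, 2 and 3. For each 100 counts of that feature, Lars2 had 2.09, 2.21, 2.24, 2.27, 2.15 and 2.17 counts in the same order. The link was noticed in the data and its part in the Lars2 values was not tested.

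**Figure D3:**
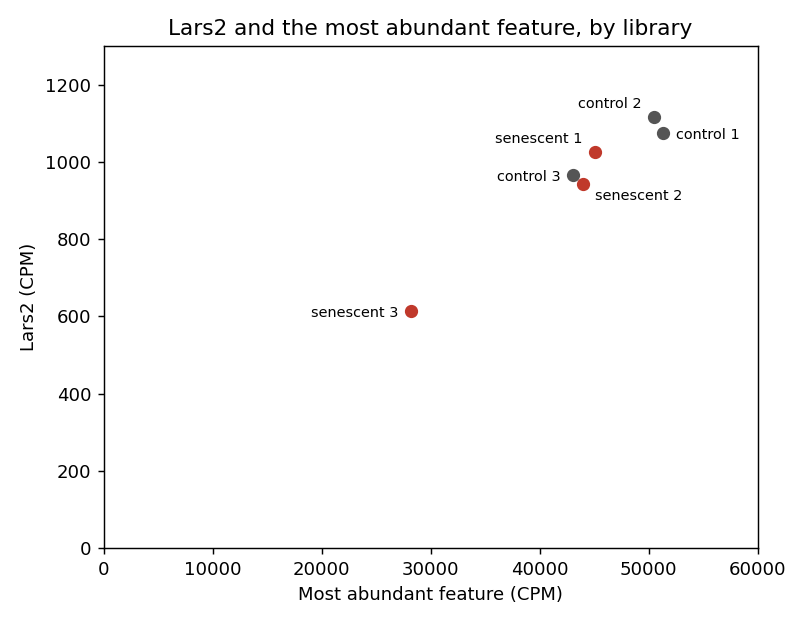
Lars2 CPM (y axis) against the CPM of the most abundant feature (x axis) in each of the 6 libraries, control medium in grey and senescent medium in red, both axes from 0. Senescent-medium replicate 3 is lowest on both axes, at 613 CPM of Lars2, and the other 5 libraries lie close together.

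Cytosolic and mitochondrial enzymes for the same amino acid could be set side by side in 14 pairs, with Farsa standing for phenylalanine. In 4 pairs the cytosolic gene rose and the mitochondrial gene fell (Aars, Iars, Sars and Yars), in 2 both rose (Nars and Rars) and in 2 both fell (Hars and Mars1). In 3 (Cars, Lars and Wars) only the cytosolic rise passed the threshold, in 1 only the fall of Farsa, in 1 only the rise of Vars2, and for threonine neither gene passed. A pass in one gene and a miss in the other does not show a difference between them, so the ratio of their CPM was taken in each library. The ratio of Aars to Aars2 was 18.8, 18.6 and 18.2 in control medium and 39.9, 41.1 and 34.3 in senescent medium, and the ratio of Sars to Sars2 went from 20.5 ± 2.50 to 38.4 ± 4.85 and that of Yars to Yars2 from 3.44 ± 0.221 to 6.06 ± 0.643. In 7 pairs, one of them Lars to Lars2 with the uneven Lars2 values given above, all senescent-medium libraries had a higher ratio than all control libraries, in 1, Rars to Rars2, a lower one (6.52 ± 0.224 and 4.91 ± 0.0563), and in 6 the ratios overlapped. With 3 libraries against 3, an exact permutation test cannot go below p = 0.1 for any of these ratios. Of all tested genes taken singly, 55.8% had no overlap between the media, and the share for ratios of other gene pairs was not taken. Farsa to Fars2 was among the overlapping ratios, while Farsb to Fars2 rose without overlap, from 2.70 ± 0.250 to 3.59 ± 0.239.

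**Figure D4:**
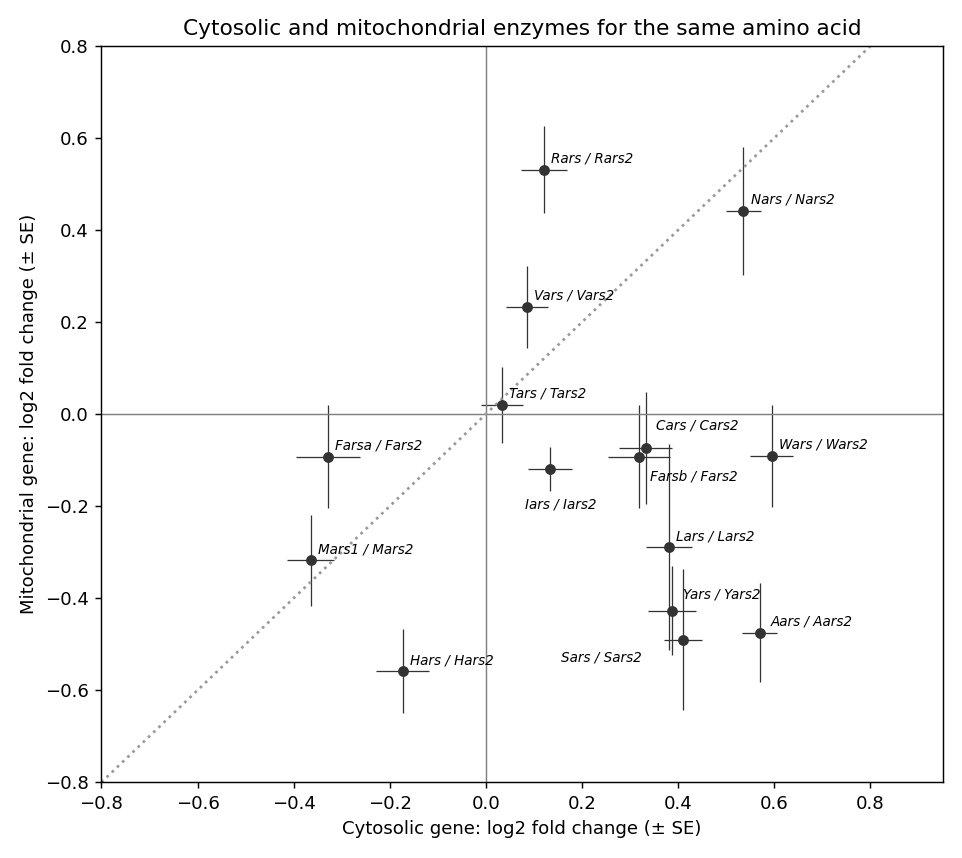
Log2 fold change of the cytosolic gene (x axis) and of the mitochondrial gene (y axis) for the same amino acid, each ± SE; on the dotted line both would be equal, and Farsa and Farsb are each plotted against Fars2. Aars, Sars and Yars lie lower right, with the cytosolic gene higher and the mitochondrial gene lower, and Nars and Nars2 lie upper right at 0.54 and 0.44.

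Synthetases fall into class I and class II by the fold of their catalytic domain, and Eprs holds both. In the cytosol 6 of 9 class I genes and 6 of 10 class II genes rose, while 1 and 2 fell. In mitochondria 2 of 9 class I genes and 1 of 7 class II genes rose, and 3 fell in each. No difference between classes or compartments was tested.

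Promoter sequences from RefSeq (build GRCm38.p6, 250 bases before to 50 after the start of transcription) were available for 29 of the 38 genes and were searched for the core of the amino acid response element, to which ATF4 binds together with C/EBP proteins. The letters were TGATGNAA on either strand, where N is any base. They occurred in 3.97% of all 32851 windows and in the windows of 2.72% of the tested genes. Among the members they were found in 5 of 13 cytosolic synthetases (Aars, Gars, Iars, Tars and Yars), in 0 of 14 mitochondrial ones and in neither scaffold gene. Cytosolic Cars, Hars, Lars, Nars, Rars, Vars and Wars and mitochondrial Hars2 and Pars2 had no window and were not searched. The 30 bases around 1 match in each of these genes follow, 5′ to 3′ on the strand of the gene, to show how alike the sites are, and a gene may hold further matches; capitals mark the match, read on the opposite strand in all but Yars. The place in brackets is that of the 30 bases.
Aars, match starting at base 10 of the transcript (chr8:111033840-111033869, plus strand): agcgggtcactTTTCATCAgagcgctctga
Gars, 30 bases before the start (chr6:55037960-55037989, plus strand): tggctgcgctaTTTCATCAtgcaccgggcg
Tars, 15 bases before the start (chr15:11399655-11399684, minus strand): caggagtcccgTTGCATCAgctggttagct
Iars, base 8 of the transcript (chr13:49682126-49682155, plus strand): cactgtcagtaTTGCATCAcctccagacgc
Yars, base 4 of the transcript (chr4:129189895-129189924, plus strand): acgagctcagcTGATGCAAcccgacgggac

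The 250 bases before the start of Tars (chr15:11399659-11399908, minus strand) are given because Tars alone among the 5 genes did not pass the test.
Tars: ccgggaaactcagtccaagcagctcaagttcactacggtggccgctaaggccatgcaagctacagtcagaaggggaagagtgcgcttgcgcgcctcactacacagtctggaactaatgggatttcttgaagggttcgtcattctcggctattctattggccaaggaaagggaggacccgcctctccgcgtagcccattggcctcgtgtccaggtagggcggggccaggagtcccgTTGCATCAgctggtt

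A match describes letters in this window and shows neither binding nor a cause. Of the 5 cytosolic genes with a match 4 rose (Aars, Gars, Iars and Yars, from 0.13 to 0.57 on the log2 scale). Among the 8 with a window and no match, Dars, Eprs, Farsb and Sars rose, Farsa and Mars1 fell, and Kars and Qars missed the threshold. For comparison, the letters were found in 9 of 26 other ATF4 and amino acid stress genes with a window. One of them is Asns, the asparagine synthetase gene, with a match starting 23 bases before its start (chr6:7693214-7693243, minus strand):
Asns: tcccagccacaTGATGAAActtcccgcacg
A search for CACGTG, the E-box letters bound by MYC and related factors (the same on both strands), found a match in 5 of 29 members (Aars, Ears2, Farsb, Iars and Tars) (17.24%), beside 11.8% of the tested genes, 13.5% of those called higher and 7.15% of all windows.

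Other genes of the amino acid stress response rose in the same libraries. Of 28 such genes, no synthetase among them, 25 were higher and 1 was lower, with a median log2 fold change of 0.65. Atf4 rose from 128.9 ± 5.44 to 205 ± 3.39 CPM (0.67 ± 0.039, adjusted p = 2.92e-15, edgeR). Atf5, a related factor, rose from 212 ± 7.48 to 607 ± 15.2 CPM, the large neutral amino acid transporter gene Slc7a5 from 26.9 ± 0.163 to 80.6 ± 1.16 CPM, and the lipoprotein receptor gene Vldlr from 24.0 ± 0.879 to 75.8 ± 4.68 CPM. The transcription factor gene Cebpb fell (−0.15 ± 0.037), and Atf3 and Cebpg missed the threshold. Of the kinases that phosphorylate eIF2, the interferon-induced Eif2ak2 rose (0.43 ± 0.056), the heme-sensing Eif2ak1 fell, and Eif2ak3 and Eif2ak4, which sense endoplasmic reticulum stress and uncharged transfer RNA, missed the threshold (adjusted p = 0.0600 and 0.191, edgeR). The largest rise of a synthetase, 0.59 for Wars, was below the median of the 28 genes.

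Genes that handle transfer RNA before or after charging moved both ways. The test called 5 of 16 such genes higher and 5 lower. Their median was −0.07 on the log2 scale. The tRNA export receptor gene Xpot rose from 86.8 ± 0.559 to 103.9 ± 4.11 CPM (0.26 ± 0.043) and Dtd1, which removes D-amino acids from charged transfer RNA, from 7.499 ± 0.224 to 10.2 ± 0.3998 CPM (0.45 ± 0.11). Sepsecs, the last enzyme in making selenocysteinyl-tRNA, fell (−0.35 ± 0.083), as did Mtfmt, which formylates the mitochondrial initiator (−0.45 ± 0.13), and the mitochondrial hydrolase gene Ptrh2 (−0.27 ± 0.097).

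Translation factors take over the charged transfer RNA. All 6 cytosolic factors tested were higher, with a median log2 fold change of 0.19: Eef2, which moves the ribosome along, rose from 2402 ± 88.3 to 2759 ± 55.7 CPM, and Eef1b2 and Eef1g, subunits of the exchange factor for the carrier of charged transfer RNA, rose by 0.19 ± 0.035 and 0.25 ± 0.040. Eif5a and Eef1d passed narrowly, with log2 fold changes of 0.09 ± 0.035 and 0.11 ± 0.047 (adjusted p = 0.0426 and 0.0488, edgeR). The Eef1d libraries overlapped between media. Of 8 mitochondrial factors 2 rose and 1 fell. Mrrf, which recycles ribosomes, and the initiation factor gene Mtif2 rose (0.39 ± 0.077 and 0.23 ± 0.089), and Tufm, the mitochondrial carrier of charged transfer RNA, fell from 31.1 ± 2.84 to 26.0 ± 0.975 CPM (−0.26 ± 0.071).

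**Figure D5:**
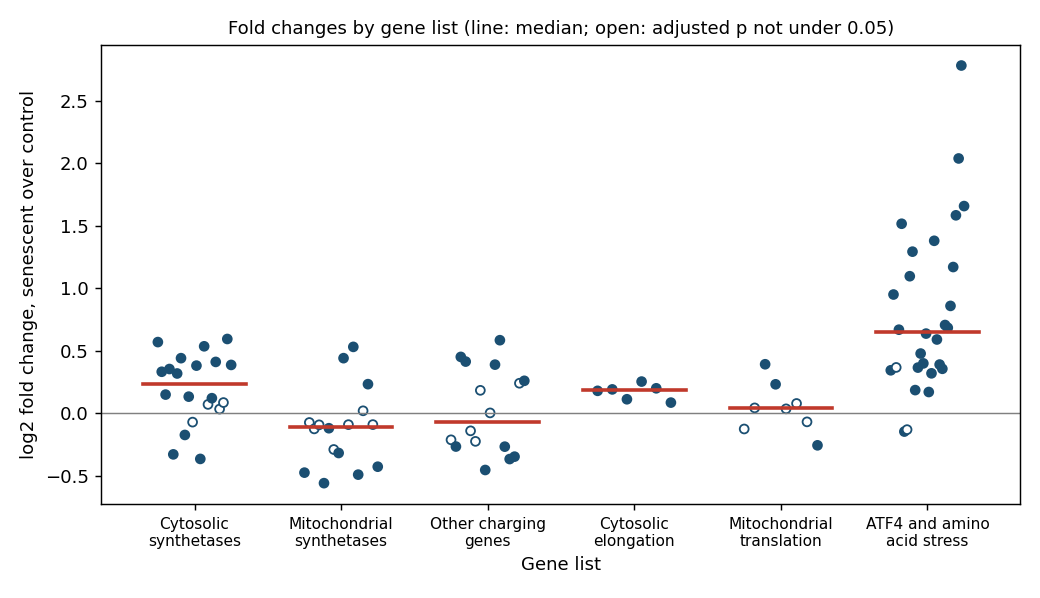
Log2 fold change of senescent over control medium (y axis) for each gene of 6 lists (x axis), with the list's median as a red line and filled points for an adjusted p under 0.05 in edgeR. The medians are 0.23 for cytosolic and −0.11 for mitochondrial synthetases, and 0.65 for the ATF4 and amino acid stress genes.

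Levels can be compared between genes only per length, here as CPM per kilobase of annotated exon, all exons of a gene merged. In control medium the cytosolic synthetases ran from 6.53 (Cars) to 37.2 (Nars), with a median of 15.1, and the mitochondrial ones without Lars2 from 0.817 (Nars2) to 9.01 (Iars2), with a median of 1.84. Nars and Gars, at 37.2 and 37.1, were close to each other, followed by Sars, Hars and Aars at 24.1, 23.9 and 23.1. In senescent medium Nars and Gars reached 53.96 and 50.3, and Aars, at 34.3, stood above Sars at 32.1. Merged exons can include rarely used ones, and the length taken for Eprs was 18102 bases. Replicate spread was narrow: the coefficient of variation was 0.846% to 8.003% in control medium and 0.316% to 5.66% in senescent medium for the cytosolic genes, and up to 12.2% and 18.2% for the mitochondrial ones without Lars2.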

How the data were processed

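Values were read from the deposited table as estimated counts, one row to an Ensembl gene and without normalization. The submitters' processing notes name STAR, DESeq2 and build mm39, with no role for any of them. What counted the reads, on which annotation and whether by strand is not given in the sources used here. RNA (about 600 ng) was sequenced as paired reads of 150 bp, per the labels. Every listed gene had at least 10 counts in all. Counts were rounded. Symbols, matched for 18092 of 18124 identifiers, exon lengths and overlaps came from GENCODE M21 (GRCm38), so no mm39 coordinates are given.

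The test was edgeR 4.0.16's quasi-likelihood F-test in R 4.3.3 (robust, TMM scaling, edgeR's expression filter, medium as the only term), two-sided, with Benjamini-Hochberg adjustment over 14644 genes and a threshold of 0.05. The standard error is the absolute log2 fold change over the root of F. The fit was run on simulated counts first. The condition set for that run covered only changes larger than those of any member. It therefore does not show how well changes of the members' size are detected. Alternatives were DESeq2 1.42.0, limma-voom (limma 3.58.1), other scalings, filters and threshold, the replicate block and each library left out. The members and lists were chosen with earlier results of these data known. Values per library are given for up to 5 called members by adjusted p per role and direction, for each cytosolic member not called or lower, and for Eprs, Wars, Gars and Kars; in other lists up to 3 genes per direction are named. Farsb, Lars2, Iars2, Atf4, Atf3, Cebpg, Ddit3, Asns, Rab3gap2, Irf1, Gbp2, Lyz2, Cd14, Csf1r, Cd68, Des and Eef1e1 were added after their values were seen. The same holds for Eef1d and Eif5a. Some results are not reported here.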

Additional observations from a re-analysis of the deposited data

How the results depend on the processing

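Of the 38 genes, 28 had the same call in all 14 alternatives, and 23 of them also the same direction. The other 5, none of them called, changed sign: Qars (−0.01), Tars (−0.05) and Tars2 (−0.06) with library totals, Cars2 (0.01) without senescent-medium replicate 2 and Wars2 (0.02) without control replicate 2. With library totals alone the median log2 fold change was 0.15 for the cytosolic and −0.19 for the mitochondrial synthetases; the median of all genes then fell by 0.081, and 2589 genes were higher and 4813 lower, against 3607 and 3644. Leaving out one library gave medians of −0.16 to −0.099 for the mitochondrial genes, the lowest without control replicate 2, and 1 to 3 mitochondrial genes called higher (1 without control replicate 2 or senescent-medium replicate 1); the cause was not tested. At a threshold of 0.01, 14 members were higher and 7 lower. Same-numbered libraries did not deviate together (r = 0.0187, 0.00189 and 0.0262), and with the replicate block 17 members were higher and 10 lower, as without it; a fit with the replicate block gave 3704 and 3698 for all genes. Standard errors of the uncalled mitochondrial genes other than Lars2 were 0.083 to 0.16.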
